A study of Homo sapiens with 10 samples.

Results

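Expression of 10 imprinted genes was compared between 2 human endothelial cell lines: H19, IGF2, CDKN1C, MEG3, PEG3, PEG10, MEST, PLAGL1, SNRPN and NNAT. They were taken as the rows of the count table whose Ensembl identifier carries these symbols in GENCODE 44, which gave 10 of 60448 genes. RNA-seq had been performed on untreated cells, with 5 libraries of EA.hy926 and 5 of HMEC-1. One parent of EA.hy926, a fused line, was umbilical vein endothelium and the other the lung tumour line A549, and it was grown in Advanced DMEM with 5% serum. HMEC-1 derives from dermal microvascular endothelium immortalized with the SV40 large T antigen, and was grown in MCDB 131 with 10% serum, hydrocortisone at 1 µg/mL and epidermal growth factor at 10 ng/mL. Each group is a single line in its own medium, so line, medium and the source of the genome cannot be told apart. The total count of a library lay between 34846046 and 39899324 for EA.hy926 and between 33391640 and 43877224 for HMEC-1, and 3 counts in a library, used here as the floor, corresponded to 0.0650 to 0.0903 CPM (counts per 1e+06 counts of the scaled library).

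Imprinted genes are expressed mainly from either the maternal or the paternal copy, because DNA methylation laid down in the germ line marks a control region on that copy or on the other and is then kept through cell division. They lie in clusters in which a single control region sets the expression of several genes, and many of them regulate fetal growth and placental development. Of the genes studied, H19, CDKN1C and MEG3 are known as expressed from the maternal copy, and IGF2, PEG3, PEG10, MEST, PLAGL1, SNRPN and NNAT from the paternal copy. The deposited counts sum both copies, so which parental copy gave the RNA was not measured here, and DNA methylation was not measured either.

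The sequences just before the annotated starts are shown because the methylation marks of imprinted genes lie on CpG dinucleotides. Whether a printed window belongs to the control region of its locus was not tested. RefSeq start sites (GRCh38.p14) were given for 5 of the 10 genes, with 18 windows of 250 bases ending at a start. For each gene the window with the most CpG dinucleotides is printed 5′ to 3′ on the strand of the gene, with every CpG in capitals. Bases that GENCODE 44 places in an exon of a coding transcript were left out, which shortened the PLAGL1 and SNRPN windows to 79 and 198 bases. MEG3 had 2 windows with the same number, of which the more upstream is shown, and MEST had 2, of which the one free of such exons is shown.
H19 (chr11:2001267-2001516, minus strand): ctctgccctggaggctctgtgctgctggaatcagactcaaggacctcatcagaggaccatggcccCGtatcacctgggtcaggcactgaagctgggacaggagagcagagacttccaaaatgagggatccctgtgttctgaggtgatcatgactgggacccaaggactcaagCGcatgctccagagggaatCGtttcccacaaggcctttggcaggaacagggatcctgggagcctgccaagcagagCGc
MEG3 (chr14:100825858-100826107, plus strand): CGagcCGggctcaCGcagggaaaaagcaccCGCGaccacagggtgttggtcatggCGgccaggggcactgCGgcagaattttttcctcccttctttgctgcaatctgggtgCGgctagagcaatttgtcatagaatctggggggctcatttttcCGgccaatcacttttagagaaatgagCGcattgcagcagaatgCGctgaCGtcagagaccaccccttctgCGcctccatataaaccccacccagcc
MEST (chr7:130491835-130492084, plus strand): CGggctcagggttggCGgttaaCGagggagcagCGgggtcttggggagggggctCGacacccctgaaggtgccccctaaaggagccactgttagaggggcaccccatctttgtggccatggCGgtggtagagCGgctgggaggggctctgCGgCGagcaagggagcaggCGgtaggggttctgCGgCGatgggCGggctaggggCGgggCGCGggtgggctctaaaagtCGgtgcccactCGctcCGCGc
PLAGL1 (chr6:144008431-144008509, minus strand): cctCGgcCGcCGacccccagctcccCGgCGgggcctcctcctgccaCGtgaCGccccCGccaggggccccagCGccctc
SNRPN (chr15:24954737-24954934, plus strand): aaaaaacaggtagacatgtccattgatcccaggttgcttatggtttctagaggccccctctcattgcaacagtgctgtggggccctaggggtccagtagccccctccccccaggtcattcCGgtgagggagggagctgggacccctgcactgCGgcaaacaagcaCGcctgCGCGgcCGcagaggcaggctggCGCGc
Over its full 250 bases the H19 window held 4 CpG dinucleotides, the MEG3 window 13, the MEST window 20, the PLAGL1 window 32 and the SNRPN window 12, beside a median of 11 over the 35116 windows of all genes in the table. No more CpG dinucleotides than in the PLAGL1 window were found in 91.9% of all windows. The motif TGCCGC, the core of the site that the imprint-keeping factor ZFP57 reads when its CpG is methylated, was searched on both strands. It was present in 7 of the 18 windows and in 12.7% of all windows. The MEG3 windows among the 7 overlap each other and hold the same site. The motif occurred 2 times in the full PLAGL1 window, 2 times in that of SNRPN, 1 time in that of MEG3, and not in the H19 or MEST windows shown. A match describes these letters only.

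GENCODE 44 places 5 microRNA genes inside 4 of the genes: MIR675 in H19, MIR483 in IGF2, MIR2392 and MIR770 in MEG3, and MIR335 in MEST. The mature sequences that RefSeq gives for 4 of them are shown because they lie within the host gene on its strand, with the seed (bases 2 to 8) in capitals.
hsa-miR-675-3p in H19 (chr11:1996768-1996787): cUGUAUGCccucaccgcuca
hsa-miR-675-5p in H19 (chr11:1996800-1996822): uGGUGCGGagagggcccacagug
hsa-miR-2392 in MEG3 (chr14:100814551-100814570): uAGGAUGGgggugagaggug
hsa-miR-770-5p in MEG3 (chr14:100852409-100852431): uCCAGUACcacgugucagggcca
hsa-miR-335-5p in MEST (chr7:130496126-130496148): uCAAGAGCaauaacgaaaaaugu
hsa-miR-335-3p in MEST (chr7:130496162-130496183): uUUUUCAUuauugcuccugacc
No 2 of the 6 share a seed. The libraries were made from poly(A) RNA, so the counts described here are those of the host genes and do not measure the mature microRNAs.

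Of the 10 imprinted genes, 9 passed the filter on low counts and were tested, and PEG3 was not. Past both thresholds (adjusted p under 0.05 and an absolute log2 fold change over 1 in edgeR's quasi-likelihood test) were 6 of the 9. PEG10 and PLAGL1 were higher in EA.hy926, and H19, CDKN1C, MEST and MEG3 were lower. Over all 16310 genes tested, 35.5% passed both thresholds, with 19.1% higher and 16.4% lower in EA.hy926. This balance depended on the scaling, since with library totals alone 2809 genes were higher and 3085 lower. The CPM ranges of the lines did not overlap for the same number of tested imprinted genes, 6, and for 77.4% of all genes tested. The median log2 fold change of the 9 was -0.56 and that of all genes tested -0.010, while the medians of the absolute values were 1.30 and 0.65. All 3 genes known as maternally expressed were lower in EA.hy926. Of the 6 tested genes known as paternally expressed, 2 were higher, 1 was lower and 3 passed no fold threshold. With those partners at their loci included that had been assigned to a parental copy, 6 of 7 tested maternal genes were lower and 1 was not called. Of 11 tested paternal genes, 4 were then higher, 3 lower and 4 not called. The tested partners SLC22A18AS, CASD1, COPG2, CPA4, UBE3A and BLCAP were in neither count, and none of them was called.

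**Figure D1:**
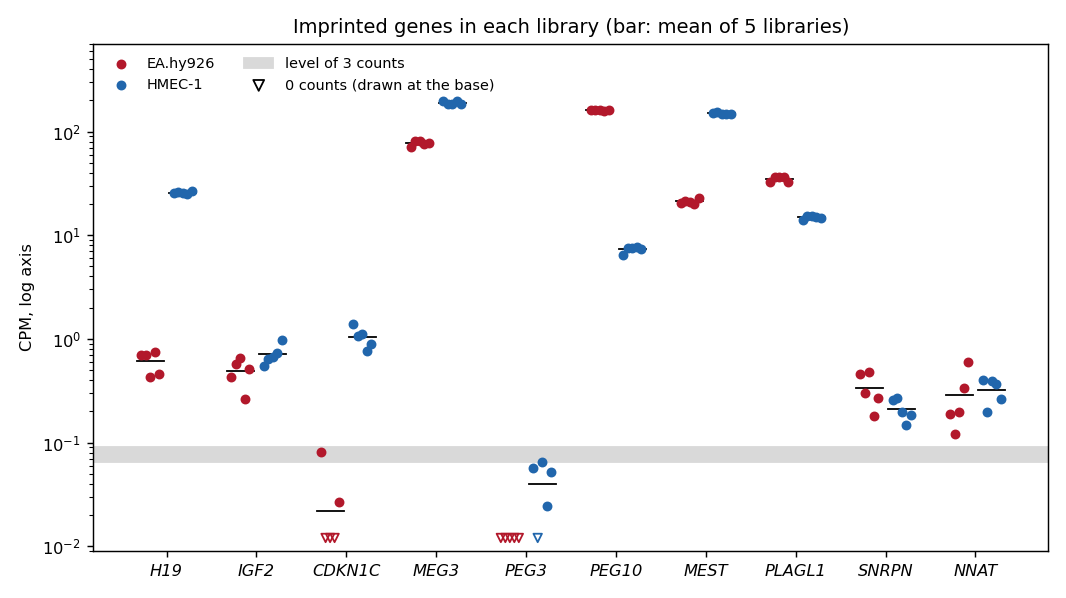
CPM of each imprinted gene (log axis) in the 5 libraries of EA.hy926 (red) and the 5 of HMEC-1 (blue), with a bar at the mean, a grey band at the level of 3 counts and open triangles for libraries at 0. H19, CDKN1C, MEG3 and MEST lie higher in every HMEC-1 library, PEG10 and PLAGL1 in every EA.hy926 library, and the points of IGF2, SNRPN and NNAT overlap.

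Divided by exonic length, the levels were ordered differently in the lines. In EA.hy926, PEG10 stood first at 24.1 ± 0.192 CPM per kb (SD, n = 5), followed by PLAGL1 at 5.43 ± 0.318, MEST at 4.46 ± 0.234 and MEG3 at 3.32 ± 0.179, and the libraries of neighbours in this order did not overlap. NNAT, H19, SNRPN and IGF2 followed between 0.217 and 0.068 CPM per kb, and within these 4 each overlapped the next in its range. In HMEC-1, MEST stood first at 31.6 ± 0.690 CPM per kb, followed by MEG3 at 8.16 ± 0.341, H19 at 7.42 ± 0.172, PLAGL1 at 2.33 ± 0.0797, PEG10 at 1.10 ± 0.0768 and CDKN1C at 0.422 ± 0.0975, again with no overlap between neighbours. H19 stood below MEG3 in both lines but far closer to it in HMEC-1. With exonic bases that no other gene covers, MEST stood above PLAGL1 in EA.hy926, at 6.16 against 5.69 CPM per kb, and SNRPN and IGF2 stood at 0.177 and 0.122 there. Among all genes tested, the PEG10 level per kb was at percentile 88.5 in EA.hy926, that of MEST at 55.1 there and 91.7 in HMEC-1, and that of H19 at 12.9 and 66.5.

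At the locus on chromosome 11, H19, CDKN1C, PHLDA2 and SLC22A18, all known as maternally expressed, were lower in EA.hy926, and IGF2 had at most 37 counts in a library of either line. H19 (ENSG00000130600, GRCh38 chr11:1995166-2004552, minus strand) is a long noncoding RNA gene and the host of miR-675. Its counts in replicates 1 to 5 were 26, 23, 15, 29 and 17 in EA.hy926 and 890, 1070, 1174, 1021 and 1011 in HMEC-1. Every EA.hy926 library held fewer than any HMEC-1 library, at 0.607 ± 0.152 CPM against 25.7 ± 0.597 CPM (SD, n = 5). The log2 fold change was -5.39 ± 0.089 (SE; edgeR, adjusted p = 1.5e-22), or 42.0-fold lower in EA.hy926.

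IGF2 (ENSG00000167244, chr11:2129112-2158391, minus strand) encodes a growth factor of fetal tissues, which shares enhancers with H19. Its counts were 16, 19, 23, 10 and 19 in EA.hy926 and 19, 26, 31, 30 and 37 in HMEC-1, so the lines overlapped. Means of 0.486 ± 0.150 and 0.711 ± 0.160 CPM gave a log2 fold change of -0.56 ± 0.24 (edgeR, adjusted p = 0.0382), which did not pass the fold threshold. Of its exonic bases, 44.4% are also exonic in other annotated genes, among them 37.9% in ENSG00000284779 on the same strand, which was not analysed here, and 20.4% in INS-IGF2, so the IGF2 count is uncertain. INS-IGF2 and IGF2-AS had 0 counts in all libraries. All exonic bases of INS-IGF2 are also exonic in other annotated genes, so its count is uncertain as well. The ratio of H19 to IGF2 in CPM per kb was 1.35 to 5.99 in EA.hy926, against 56.4 to 96.7 in HMEC-1. The ranges of the lines lay apart. Per exonic base that no other gene covers, the EA.hy926 ratios ran from 0.797 to 3.54 and the HMEC-1 ratios from 33.4 to 57.3. H19 thus stood below IGF2 in 1 library of EA.hy926 on that scale and above it in all 10 libraries per kb of all exons.

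CDKN1C (ENSG00000129757, chr11:2883213-2885775, minus strand) encodes p57, an inhibitor of cyclin-dependent kinases that restrains growth. It had 3, 0, 0, 0 and 1 counts in EA.hy926 and 49, 44, 51, 31 and 34 counts in HMEC-1. All EA.hy926 libraries were at or under the floor, and the HMEC-1 level was low as well, at 1.05 ± 0.242 CPM. With the counts of each line pooled, the HMEC-1 level was 47.0 times that of EA.hy926 (exact 95% interval 18.1 to 174, counting error only). The fitted log2 fold change was -5.36 ± 0.45 (edgeR, adjusted p = 3.6e-10), and leaving out 1 library at a time gave -6.67 to -5.05.

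Of the 4 other genes tested at this locus, 3 passed both thresholds, and all 3 were lower in EA.hy926. The share that was lower over all genes tested was 16.4%. SLC22A18, a maternally expressed membrane transporter, had 7 to 17 counts in EA.hy926, against 98 to 133 in HMEC-1, a log2 fold change of -3.17 ± 0.20 (edgeR, adjusted p = 1.9e-12). PHLDA2, a maternally expressed gene that limits placental growth, was at 11.6 CPM against 35.2 CPM (log2 fold change -1.60 ± 0.05; edgeR, adjusted p = 3.4e-18). KCNQ1OT1 is the paternally expressed antisense RNA that silences neighbours in cis. Its log2 fold change was -1.01 ± 0.11 (edgeR, adjusted p = 1.5e-08), which lay at the fold threshold and fell inside it without EA.hy926 replicate 1 (-0.95), EA.hy926 replicate 3 (-0.99) or HMEC-1 replicate 2 (-0.99). It was also not called by glmTreat, which tests against that threshold. SLC22A18AS, which overlaps SLC22A18 on the other strand, stood at -0.91 ± 0.26 (edgeR, adjusted p = 0.00272) and passed the fold threshold without EA.hy926 replicate 4 (-1.05) or with library totals (-1.04). KCNQ1, a potassium channel gene, had 0 counts in EA.hy926, against 1 to 5 in HMEC-1 and was not tested. CDKN1C, PHLDA2 and SLC22A18 lie next to each other, and NAP1L4, the nearest tested gene beyond CDKN1C that is in none of the imprinted lists, had a log2 fold change of -0.35 ± 0.02 (edgeR, adjusted p = 8.9e-12).

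At the locus on chromosome 14, MEG3 and MEG9 were lower in EA.hy926, and MEG8 did not pass either threshold. MEG3 (ENSG00000214548, chr14:100779410-100861031, plus strand) is a maternally expressed long noncoding RNA with growth-restraining activity. Its counts in replicates 1 to 5 were 2621, 2667, 2852, 2895 and 2903 in EA.hy926 and 6910, 7451, 8451, 8118 and 7096 in HMEC-1. It was lower in every EA.hy926 library, at 77.2 ± 4.16 against 189 ± 7.93 CPM. The log2 fold change was -1.30 ± 0.04 (edgeR, adjusted p = 1.4e-18). MEG9, which lies further along the same strand, fell by 1.68 ± 0.12 on the log2 scale in EA.hy926 (edgeR, adjusted p = 3.0e-11), with 45 to 71 counts against 149 to 242. MEG8, which lies between MEG3 and MEG9, had 76 to 101 counts in EA.hy926, against 79 to 103 in HMEC-1, with a log2 fold change of 0.003 ± 0.13 (edgeR, adjusted p = 0.985). The ratio of MEG3 to MEG8 in CPM per kb was 31.3 to 44.7 in EA.hy926, against 85.7 to 112 in HMEC-1, while that of MEG3 to MEG9 was 14.1 to 20.5 and 12.1 to 16.5. Thus the ranges of the first ratio lay apart and those of the second overlapped. The paternally expressed protein genes of the locus were at or near 0: DLK1, a Notch-like ligand, had 0 counts in all 10 libraries, and RTL1, a retrotransposon-derived placental gene, had 0 to 2 counts in EA.hy926, against 2 to 6 in HMEC-1.

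PEG10 and its neighbour SGCE were both higher in EA.hy926. PEG10 (ENSG00000242265, chr7:94656325-94669695, plus strand) is derived from a retrotransposon and is required for the placenta. It had 6030, 5372, 5654, 6141 and 6016 counts in EA.hy926 and 226, 307, 348, 316 and 284 in HMEC-1. The lines lay far apart, at 161 ± 1.28 and 7.33 ± 0.514 CPM, with HMEC-1 replicate 1 the lowest of its line at 6.44 CPM. The log2 fold change was 4.46 ± 0.04 (edgeR, adjusted p = 2.7e-27), or 21.9-fold higher in EA.hy926. SGCE encodes a sarcoglycan and starts next to PEG10 on the other strand and is likewise paternally expressed. Its counts were 2119, 1872, 1945, 1985 and 1998 in EA.hy926 and 103, 136, 143, 116 and 120 in HMEC-1. SGCE was thus higher in every EA.hy926 library as well, with a log2 fold change of 4.16 ± 0.05 (edgeR, adjusted p = 1.6e-24). The exons of PEG10 and SGCE share 219 bases, and whether the counting used the strand is not stated, so reads in these bases cannot be told apart. The ratio of PEG10 to SGCE in CPM per kb was 8.88 to 9.66 in EA.hy926, against 6.85 to 8.50 in HMEC-1. These ranges lay apart, but by far less than the levels of either gene. CASD1, a sialic acid acetyltransferase gene that overlaps the far end of SGCE, had a log2 fold change of 0.81 ± 0.04 (edgeR, adjusted p = 1.5e-13) and did not pass the fold threshold. COL1A2, the nearest tested gene on the far side of CASD1, was at 0 to 3 counts in EA.hy926, against 3831 to 5083 in HMEC-1.

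**Figure D2:**
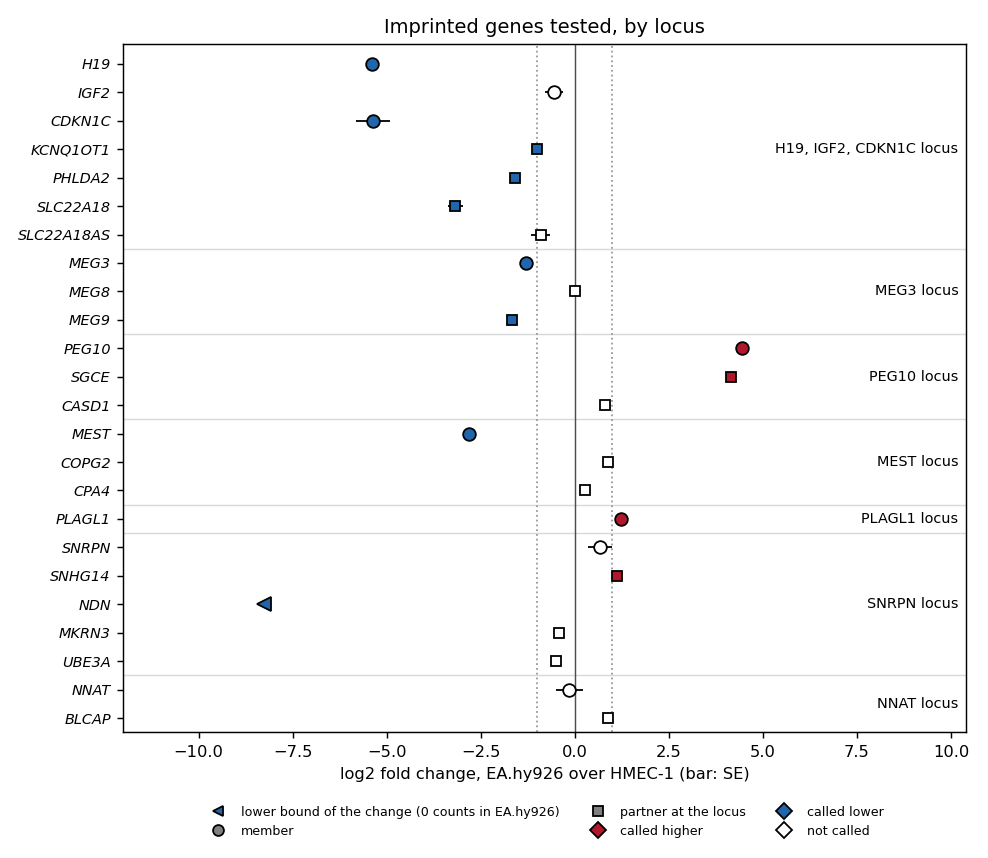
Log2 fold change of EA.hy926 over HMEC-1 with its SE for the tested imprinted genes (circles) and the tested partners at their loci (squares), coloured where both thresholds were passed; NDN, at 0 counts in EA.hy926, is drawn as a triangle at the lower bound of its change. All 7 genes of the chromosome 11 locus lie left of 0, PEG10 and SGCE lie beyond 4, and MEST and COPG2 lie on opposite sides.

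MEST was lower in EA.hy926, and neither of the 2 partners tested at its locus passed the fold threshold. MEST (ENSG00000106484, chr7:130486171-130506465, plus strand) encodes a hydrolase-like protein of the endoplasmic reticulum and hosts miR-335. Its counts were 760, 718, 736, 776 and 855 in EA.hy926 and 5350, 6343, 6875, 6057 and 5637 in HMEC-1. No library of EA.hy926 came near those of HMEC-1, at 21.3 ± 1.12 against 151 ± 3.29 CPM, and the log2 fold change was -2.82 ± 0.03 (edgeR, adjusted p = 8.9e-25). COPG2, a coat protein gene that runs toward MEST on the other strand, was at 39.6 ± 1.34 CPM in the EA.hy926 libraries and 21.6 ± 1.27 in those of HMEC-1, with a log2 fold change of 0.88 ± 0.04 (edgeR, adjusted p = 2.8e-14) that did not pass the fold threshold. CPA4, a carboxypeptidase gene, had a log2 fold change of 0.27 ± 0.04 (edgeR, adjusted p = 4.0e-06). The MEST to COPG2 ratio in CPM per kb was 0.432 to 0.506 in EA.hy926, against 5.63 to 6.47 in HMEC-1, so MEST was below COPG2 in all libraries of EA.hy926 and above it in all those of HMEC-1. The exons of this pair share 228 bases. KLF14, an imprinted zinc finger gene further along, had 0 counts in EA.hy926, against 0 to 4 in HMEC-1 and was not tested.

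**Figure D3:**
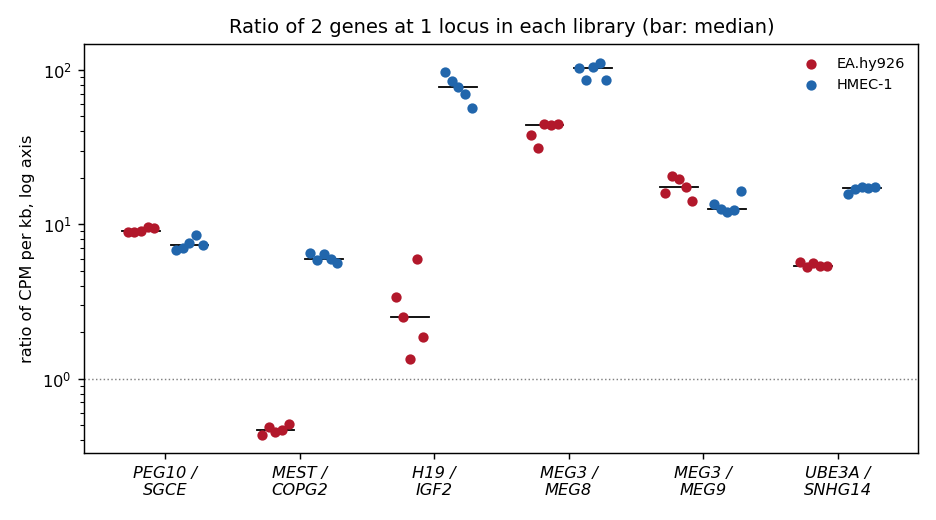
Ratio of CPM per kb between 2 genes of a locus (log axis) in each library of EA.hy926 (red) and HMEC-1 (blue), with a bar at the median. MEST to COPG2 lies below 1 in EA.hy926 and above 5 in HMEC-1, H19 to IGF2 and MEG3 to MEG8 lie apart as well, and MEG3 to MEG9 overlaps.

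PLAGL1 (ENSG00000118495, chr6:143940300-144064599, minus strand) encodes a zinc finger transcription factor that induces cell cycle arrest and regulates other imprinted genes. It had 1205, 1200, 1283, 1397 and 1211 counts in EA.hy926 and 497, 628, 711, 610 and 565 in HMEC-1. EA.hy926 was higher in every library, at 34.8 ± 2.04 against 14.9 ± 0.511 CPM, with a log2 fold change of 1.22 ± 0.05 (edgeR, adjusted p = 3.2e-16). Its RefSeq starts are spread over more than 100 kb, and the counts per gene do not show which of them was used, including the CpG-rich one printed above. HYMAI, the noncoding RNA that shares the CpG-rich start, was not analysed here.

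At the locus on chromosome 15, SNRPN had at most 17 counts in a library, SNHG14 was higher in EA.hy926, and NDN was at 0 counts there. SNRPN (ENSG00000128739, chr15:24823637-24978723, plus strand) encodes SmN, which replaces SmB in the spliceosomal core of neurons. It had 17, 10, 17, 7 and 10 counts in EA.hy926 and 9, 11, 9, 6 and 7 in HMEC-1. The lines overlapped at this low level, with a log2 fold change of 0.68 ± 0.32 (edgeR, adjusted p = 0.0525), and 43.9% of its exonic bases are shared with other genes, 23.9% with SNURF. SNURF, which is read from the same transcript, had 7 to 12 and 3 to 10 counts and was not tested. SNHG14, the long noncoding host of small nucleolar RNAs that follows SNRPN, had means of 84.3 ± 1.88 CPM in the EA.hy926 libraries and 38.6 ± 0.966 in those of HMEC-1 (log2 fold change 1.13 ± 0.03; edgeR, adjusted p = 3.4e-19). When libraries were scaled by their totals alone it stood at 0.99, inside the fold threshold. UBE3A, the ubiquitin ligase gene that SNHG14 overlaps on the other strand and silences in neurons, had a log2 fold change of -0.51 ± 0.03 (edgeR, adjusted p = 2.6e-13). The ratio of UBE3A to SNHG14 in CPM per kb was 5.27 to 5.72 in EA.hy926, against 15.8 to 17.5 in HMEC-1.

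NDN, at the same locus, encodes necdin, a growth suppressor expressed from the paternal copy. Its counts were 0, 0, 0, 0 and 0 in EA.hy926 and 1049, 1107, 1292, 1064 and 1032 in HMEC-1. Taken against 3 counts in an EA.hy926 library, this is at least 306-fold lower than in HMEC-1, and edgeR gave an adjusted p of 4.8e-20. MKRN3, the neighbour of NDN and likewise paternally expressed, had 50 to 75 and 82 to 122 counts, a log2 fold change of -0.41 ± 0.13 (edgeR, adjusted p = 0.00716). MAGEL2, between them, had at most 1 count in any library. Thus SNHG14 rose, NDN fell, and UBE3A and MKRN3 passed no fold threshold within a single imprinted locus.

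NNAT had at most 22 counts in a library of either line, and PEG3 at most 3. NNAT (ENSG00000053438, chr20:37521206-37523690, plus strand) encodes neuronatin, a membrane protein of the endoplasmic reticulum in brain and endocrine cells, and lies within BLCAP, a gene of the other strand. It had 7, 4, 7, 13 and 22 counts in EA.hy926 and 14, 8, 18, 15 and 10 in HMEC-1. The lines overlapped, with a log2 fold change of -0.14 ± 0.36 (edgeR, adjusted p = 0.71). BLCAP, an apoptosis-related gene, was at 118 ± 3.74 and 64.2 ± 1.82 CPM (log2 fold change 0.88 ± 0.03; edgeR, adjusted p = 3.5e-17). PEG3 (ENSG00000198300, chr19:56810077-56840728, minus strand) encodes a zinc finger protein. It had 0 counts in all EA.hy926 libraries and 2, 0, 3, 1 and 2 in HMEC-1, at or under 3 counts throughout, so no fold is given. Its partners were alike: ZIM2, MIMT1 and ZIM3 had 0 counts in all libraries and USP29 at most 3. Of the exonic bases of PEG3 and ZIM2, 50.9% and 50.3% are also exonic in other annotated genes, so the counts of these genes are uncertain.

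Counted over the 34 partner genes at these loci, 33 had a row in the table and 15 were tested. SGCE and SNHG14 were higher in EA.hy926, KCNQ1OT1, PHLDA2, SLC22A18, MEG9 and NDN were lower, 7 passed the adjusted p alone and MEG8 did not pass it. The share called over all genes was 35.5%, with 19.1% higher and 16.4% lower. The median log2 fold change of the 15 was -0.41, beside -0.010 over all genes, and 14 of the partners had at most 3 counts in every library.

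Genes listed here as imprinted elsewhere in the genome also differed in both directions. Of 22 such genes, 17 were tested; 3 rose and 7 fell in EA.hy926, beside 19.1% and 16.4% of all genes, with a median log2 fold change of -0.55 beside -0.010. FAM50B, a paternally expressed gene, had 0 counts in EA.hy926, against 186 to 240 in HMEC-1, at least 59.2-fold lower against 3 counts (edgeR, adjusted p = 1.6e-15). WT1, a transcription factor gene of kidney and mesothelium, had 47 to 68 counts in EA.hy926 and 0 in HMEC-1, at least 19.6-fold higher (edgeR, adjusted p = 1.1e-11). FAM50B thus had no count in EA.hy926 and WT1 none in HMEC-1. GPR1, a chemerin receptor gene now named CMKLR2, had 1 to 11 counts against 118 to 147 (log2 fold change -4.24 ± 0.22; edgeR, adjusted p = 9.4e-14). ZNF331, a zinc finger gene, was at 3.08 against 20.4 CPM (log2 fold change -2.73 ± 0.06; edgeR, adjusted p = 2.4e-20). Together with the members and partners, 41 of the 66 genes listed as imprinted were tested, and 7 rose and 16 fell.

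The counts of called genes near the imprinted genes stand beside a share of 35.5% over all genes. Within 500 kb of H19, 9 tested genes outside the imprinted lists had a median log2 fold change of 0.17, with 1 higher and 1 lower in EA.hy926, and the nearest, MRPL23, stood at 0.17 ± 0.04 (edgeR, adjusted p = 3.6e-04). The lower gene was DUSP8 at -5.27. Around CDKN1C, 5 such genes had a median of 0.032 and none passed both thresholds. Around MEST there were 6, with a median of -0.26 (0.39 within 100 kb), and the nearest on the centromeric side, CEP41, stood at 0.39 ± 0.04 (edgeR, adjusted p = 3.8e-09). Around PLAGL1 there were 8, with a median of -0.063 (0.13 within 1000 kb), and SF3B5, 30285 bases from it, stood at -0.24 ± 0.03 (edgeR, adjusted p = 1.6e-06). The 5 genes within 500 kb of MEG3 had a median of -0.95 (-0.056 within 1000 kb), but 2 of them, MIR493HG and MIR770, overlap MEG3 or MEG8 on the same strand. Of the 15 near PEG3, 5 were lower in EA.hy926 (ZNF542P, ZNF582, ZNF471, ZFP28 and ZNF470), beside 16.4% of all genes, and 4 of the 15 had 0 counts in all libraries of a line. Around SNRPN the median was 0.88 over 6 genes (0.11 within 100 kb), but 5 of them overlap exons of SNHG14, and RPL5P1, the other, stood at 0.45. Around NNAT the median was 0.78 over 7 genes, but -0.31 within 100 kb.

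**Figure D4:**
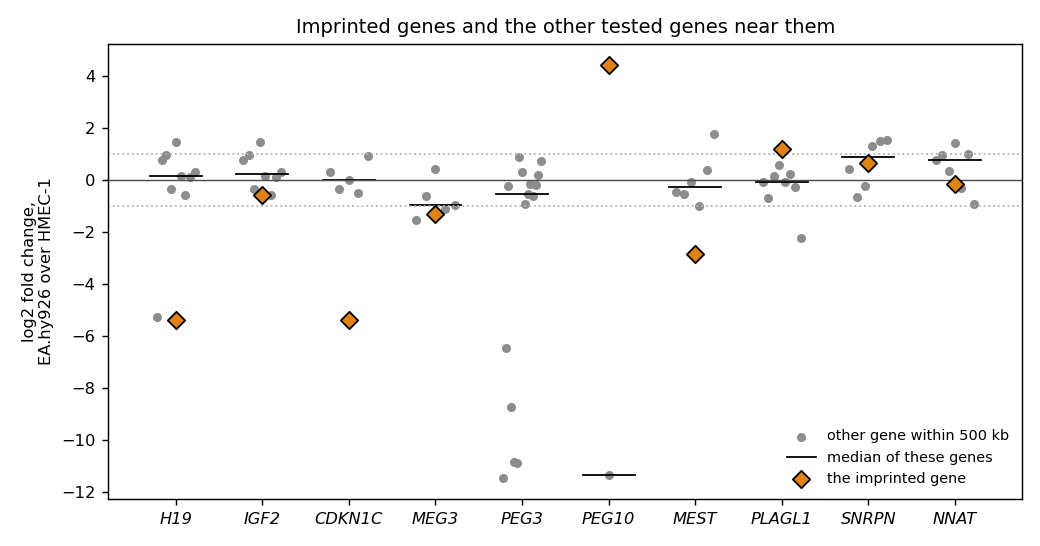
Log2 fold change of EA.hy926 over HMEC-1 of each tested imprinted gene (orange diamonds) and of the other tested genes within 500 kb (grey points, bar at their median); the lowest values are fitted for genes at or near 0 counts in EA.hy926. CDKN1C, MEST and PLAGL1 lie apart from all points of their columns, PEG10 has a single neighbour (COL1A2), and H19 lies beside DUSP8 and apart from the others.

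By likeness of log2 CPM over the 10 libraries, centred on the mean of each gene so that its level does not count, the genes closest to MEG3 were PSAT1, LNPK and TRIP13, at distances of 0.14, 0.18 and 0.18 on the log2 scale, with log2 fold changes of -1.27, -1.32 and -1.27 beside -1.30 for MEG3. Those closest to H19 were NPR1, ARSI and AFAP1L2, at distances of 0.42, 0.50 and 0.67, with fitted log2 fold changes of -7.01, -6.51 and -5.95 beside -5.39 for H19. Their means in EA.hy926 were at most 0.121 CPM, a level at which fitted values depend on the prior count. None of the 6 lies on the chromosome of the gene it resembles.

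A list of 16 imprint maintenance genes also held TET1, TET2 and TET3, which act against DNA methylation. Of the 16, 13 were tested with edgeR and 0 passed both thresholds, beside 35.5% of all genes. Even so, 12 had an unadjusted p under 0.05, as did 14086 of all 16310 genes tested. DESeq2 and limma-voom called 0 as well. TRIM28, the corepressor that ZFP57 recruits, was at 491 and 346 CPM (log2 fold change 0.51 ± 0.03; edgeR, adjusted p = 1.3e-12), and ZNF445, which keeps imprints in human cells, was at 32.9 and 48.2 CPM (-0.55 ± 0.04; edgeR, adjusted p = 4.9e-12). DNMT1, which copies methylation at replication, stood at -0.27 ± 0.03 (edgeR, adjusted p = 8.8e-08), and its partner UHRF1 at -0.023 ± 0.05 (edgeR, adjusted p = 0.644). With library totals alone, DNMT3B, a methyltransferase that sets new marks and stood at -0.87, passed both thresholds. ZFP57 itself and DNMT3L had at most 1 count in any library, and CTCFL had 0.

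Of the 14 genes of the IGF pathway, 13 were tested, with 3 higher and 5 lower in EA.hy926, beside the 35.5% called over all genes, and a median log2 fold change of -0.48, and IGF1 had 0 counts in all libraries. Of the binding proteins that hold the ligand, IGFBP2 had 7 to 15 counts in EA.hy926, against 4562 to 5775 in HMEC-1 (log2 fold change -8.68 ± 0.07; edgeR, adjusted p = 7.6e-28), and IGFBP5 had 0 to 2 counts against 3278 to 4391, a ratio of pooled counts of 5635 (exact 95% interval 1928 to 27326, counting error only). IGFBP2 and IGFBP5 are neighbours on chromosome 2. IGFBP6 was higher, at 294 ± 12.0 against 62.0 ± 1.87 CPM (2.24 ± 0.03; edgeR, adjusted p = 1.2e-23), and IGFBP1 was lower at 0.148 against 0.690 CPM. The adaptors that pass the signal on from the receptor were both lower: IRS2 had 4 to 16 counts against 644 to 776 (-5.78 ± 0.13; edgeR, adjusted p = 4.7e-20), and IRS1 was at 6.40 against 81.1 CPM (-3.66 ± 0.05; edgeR, adjusted p = 1.4e-23). The receptor genes IGF1R and INSR passed no fold threshold. PAPPA and PAPPA2, proteases that cut binding proteins, were higher, PAPPA at 55.7 against 26.1 CPM and PAPPA2 at 12 to 18 counts against 0 to 2. When libraries were scaled by their totals alone, PAPPA stood at 0.96 and inside the fold threshold. IGF2R, the receptor that clears IGF2, was counted among the genes listed as imprinted elsewhere in the genome. It was lower in EA.hy926, at 100 against 272 CPM (-1.44 ± 0.03; edgeR, adjusted p = 5.1e-20).

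Of the 3 proteins that bind IGF2 mRNA, 2 were higher in EA.hy926, beside 19.1% of all genes tested. IGF2BP1 was at 86.1 against 11.8 CPM (log2 fold change 2.86 ± 0.05; edgeR, adjusted p = 1.1e-22) and IGF2BP3 at 209 against 43.8 CPM (2.26 ± 0.03; edgeR, adjusted p = 3.7e-24). Both are oncofetal proteins, silent in most adult tissues. IGF2BP2 stood at -0.90 ± 0.02 (edgeR, adjusted p = 4.1e-19), inside the fold threshold, which it passed with library totals (-1.04).

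Among 13 cell cycle genes that p57 or its relatives act on or with, 12 were tested, of which 2 were higher and 4 lower, beside 19.1% and 16.4% of all genes, with a median log2 fold change of -0.67. CCND1, the D-type cyclin of early G1, was at 760 against 114 CPM (2.73 ± 0.03; edgeR, adjusted p = 1.4e-25). CCND3, CCNE2 and CCNA2, further cyclins of G1 and S phase, stood at -1.97 ± 0.03, -1.96 ± 0.06 and -1.55 ± 0.03. CDKN1A and CDKN1B, the genes of the related inhibitors p21 and p27, passed no fold threshold, at 266 against 230 CPM and 69.4 against 101 CPM. Per length, CDKN1A at 88.7 and 76.7 CPM per kb and CDKN1B at 7.49 and 10.9 stood above CDKN1C in all libraries. Of the 7 genes of the Sm core ring into which SmN is built, 0 passed both thresholds in edgeR, DESeq2 and limma-voom. In edgeR, 35.5% of all genes tested passed both. All 7 had an unadjusted p under 0.05 in edgeR, as did 14086 of all 16310 genes tested. SNRPG passed both thresholds with library totals (-1.02). SNRPB, the gene of SmB, stood at 0.53 ± 0.03 (edgeR, adjusted p = 2.7e-12), at 231 against 160 CPM.

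**Figure D5:**
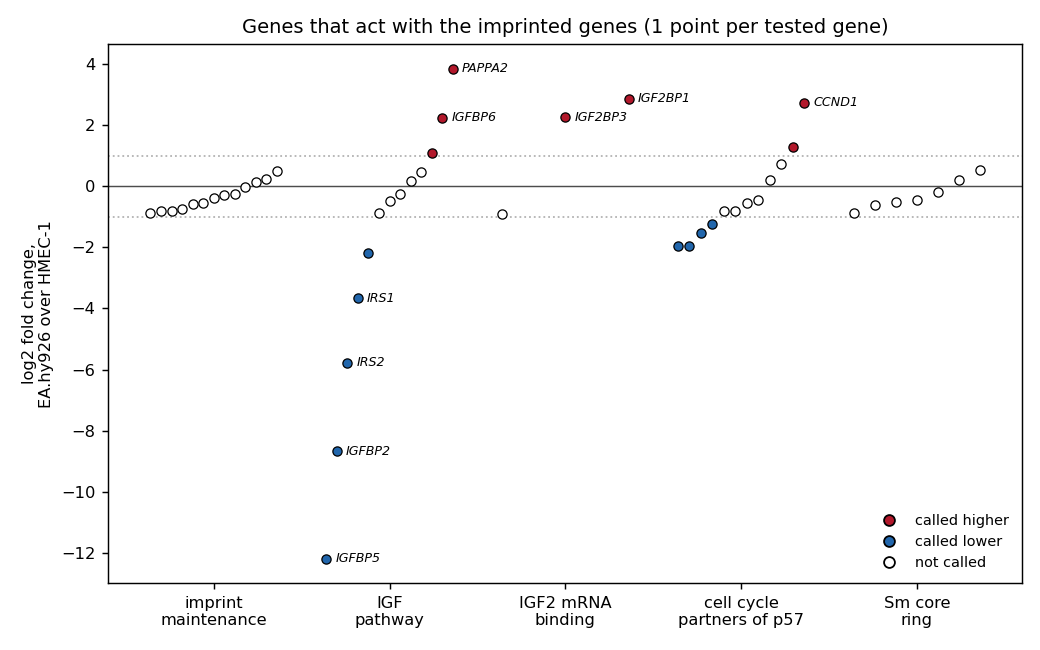
Log2 fold change of EA.hy926 over HMEC-1 for each tested gene of 5 groups that act with the imprinted genes, coloured where both thresholds were passed and named where the value is beyond 2.2. The points of imprint maintenance and the Sm core ring all lie between the dotted lines at -1 and 1, and those of the IGF pathway reach from 3.85 down to the fitted -12.2 of IGFBP5.

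The label of endothelial cells was checked against marker genes. The counts of calls in each marker list stand beside 19.1% higher and 16.4% lower over all genes tested. All 12 endothelial markers were tested, 7 were higher and 2 lower in EA.hy926, and their summed CPM was 5801 to 6494 in EA.hy926, led by PECAM1, and 1973 to 2034 in HMEC-1, led by CDH5. CLDN5 and EMCN, with at most 5 and 2 counts in an EA.hy926 library, were the 2 lower ones. A further 2 endothelial markers passed the adjusted p alone and 1 did not pass it. Markers of other cell types moved with the line as well. Of 10 epithelial markers, 2 were higher and 3 lower, and their sum was 1274 to 1388 against 429 to 491 CPM, led by KRT7 in both lines, while CDH1, ESRP1 and ELF3 had at most 2 counts. Of 10 fibroblast and mural markers, 2 were higher and 5 lower, with sums of 412 to 471 CPM in EA.hy926, led by RGS5, and 525 to 550 CPM in HMEC-1, led by COL1A1, while DCN and LUM had 0 counts. Of 6 haematopoietic markers, LYZ was higher and CD14 lower, with sums of 9.21 to 11.9 CPM in EA.hy926, led by LYZ, and 0.628 to 1.18 CPM in HMEC-1, led by CD14, and PTPRC had at most 6 counts. Of 6 neuronal markers SYT1 alone was tested and was higher, with sums of 68.1 to 76.4 against 0.105 to 0.416 CPM, and STMN2 had 0 counts. In cultured lines fewer cells of a kind and less RNA per cell cannot be told apart, and the part of these programmes in the differences of the imprinted genes was not tested.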

How the data were processed

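RNA-seq libraries of untreated cells were grouped by the cell line in the labels. The authors purified poly(A) RNA on magnetic beads, and the deposited values are raw read counts per gene. The paper names HISAT2 and HTSeq on GRCh38, while the submitters' processing notes list fastp, HISAT2, featureCounts and DESeq2; strand setting, annotation and versions are not given in the sources used here, so overlapping genes are uncertain. Identifiers were matched to GENCODE 44 (56434 of 60448, 93.4%). Libraries were compared with edgeR 4.0.16 in R 4.3.3: filterByExpr (minimum count 10, minimum total 15), TMM factors, glmQLFit and glmQLFTest without covariates, with p-values adjusted by Benjamini-Hochberg across the 16310 genes that passed the filter. A call needed an adjusted p under 0.05 and an absolute log2 fold change over 1, positive where EA.hy926 was higher. CPM is relative to the TMM-scaled library size. The methods describe the libraries of a line as independent biological replicates. No library was a copy of another (chi-square per degree of freedom 3.24 to 8.22).

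The members, lists and rules were chosen with earlier results of these data known. Named were all members, every partner tested or over 3 counts, of other lists the genes past both thresholds with the largest change (at most 4 per list), the nearest neighbours and the 3 most alike genes. IRS1, IGFBP1, IGFBP6, PAPPA, IGF1R, INSR, IGF2R, IGF2BP2, CDKN1A, CDKN1B, DUSP8, the zinc finger genes near PEG3, and the genes named from lists with 0 calls were added after their values were seen. Alternatives were DESeq2 1.42.0, limma-voom 3.58.1, 2 other filters, RLE factors, library totals, a replicate block, glmTreat, each library left out in turn, other windows for neighbours, and exonic bases not covered by other genes, which for ratios within a locus was added after seeing the data. Likeness was the Euclidean distance of log2 CPM over the 10 libraries, centred on the mean of each gene. The edgeR fit was tested on simulated counts. Tables were handled with pandas 2.3.3 and scipy 1.17.1.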

Additional observations from a re-analysis of the deposited data

Results flagged for a closer look

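PEG10 in HMEC-1 was the only value with a library set apart from the others of its line, among 17 groups of 5 libraries examined. HMEC-1 replicate 1 was at 6.44 CPM and the other libraries at 7.43 to 7.75 CPM, a gap of 0.754 of the whole range beside a limit of 0.71. Chance alone gives such a gap in about 1 of 20 groups. Without that replicate the log2 fold change of PEG10 was 4.40, in place of 4.46 with all libraries.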

How the results depend on the processing

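The calls of the 10 imprinted genes changed only with the filter on low counts: 7 were called with no filter, where PEG3 with 0 to 3 counts entered, and 5 with at least 10 counts in every library, which leaves out CDKN1C. All other alternatives, among them DESeq2, limma-voom, RLE factors, library totals, glmTreat and each library left out, gave 6. At least 10 counts in every library gave 6 calls among the other imprinted genes in place of 10, 3 in the IGF pathway in place of 8, and 3255 over all genes in place of 5784, since fewer genes were tested. No filter gave 9312 over all genes. Library totals moved the median log2 fold change of all genes by -0.13 and gave 1 call in imprint maintenance (DNMT3B) and 1 in the Sm core ring (SNRPG, -1.02) in place of 0. NNAT turned to 0.043 without EA.hy926 replicate 2, and leaving out 1 library at a time gave -0.57 to 0.043. Leaving out libraries gave 6 to 8 calls among partners and 5945 to 6000 over all genes. The replicate block gave 6 calls among the imprinted genes and 5786 over all genes. Deviations of same-numbered libraries correlated at -0.023 to 0.039, and 4 of 10 libraries correlated best with their own number. Whether equal numbers mark a shared batch cannot be told from these values. Windows of 100 or 1000 kb moved 11 of 16 medians of neighbours, among them those near MEST (0.39 at 100 kb), NNAT (-0.31 at 100 kb), SNRPN (0.11 at 100 kb), MEG3 (-0.056 at 1000 kb), PEG3 (-0.022 at 1000 kb) and PLAGL1 (0.13 at 1000 kb). Depth limits CDKN1C, PEG3, IGF2, SNRPN and NNAT, which had at most 51 counts in a library.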
